A study of Anser cygnoides with 6 samples.

Results

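Growth factors are secreted proteins that bind receptors on nearby or distant cells and change their growth, differentiation or metabolism. Members were the gene models of the goose liver mRNA table whose Gene Ontology column held the term for growth factor activity, a rule that used no measured value. The authors report this term among the top enriched ones for the genes that differed between these livers. The shares of members called below are thus no independent test of it. The rule found 65 of 21009 models, among them the inhibin beta E chain (INHBE) and fibroblast growth factor 23 (FGF23). By their descriptions, 19 models were fibroblast growth factors (FGFs), 8 were bone morphogenetic proteins (BMPs), 9 were growth and differentiation factors (GDFs) or myostatin, 4 were inhibin and activin chains, and 6 were named for other TGF-beta family ligands. The others were 4 models known only by a TGF-beta domain, 6 of the PDGF and VEGF family, 4 cytokines, 2 of the midkine and pleiotrophin family, 1 of the insulin family and 1 GDNF family ligand. The last was 1 rabaptin model, an endosomal protein that carries the term but is not known as a growth factor.

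Liver RNA came from 6 adult lion-head geese, 120 days old when feeding began, 3 high-intake-fed and 3 normally-fed, with 1 library per bird. High-intake-fed birds were force-fed several meals a day with a diet that included boiled rice, and normally-fed birds ate at will, for 38 days. Feed was then withheld overnight, and each group lived in an isolator of its own, so that isolator and feeding cannot be told apart. All birds, in both groups, were killed with sodium pentobarbital. The sources used here do not give the sex of these 6 birds. The libraries held 14154910 to 16993373 counts, and the 65 members took 0.0364% to 0.0684% of them. High-intake-fed replicate 3 had the lowest mean correlation with its group (0.934, Pearson's r of log2(CPM + 1) across mRNAs), against 0.937 and 0.944 for the other high-intake-fed birds and 0.970 to 0.972 for normally-fed birds, and the values that changed a call without it are given beside the member. With 1 bird left out, edgeR called 30 to 511 mRNAs, the most without this bird, against 190 with all 6. Albumin, the main plasma protein made by hepatocytes, had 1114917 to 2942995 counts in high-intake-fed livers and 2467372 to 3766878 counts in normally-fed livers.

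Ligands of the TGF-beta family (activins, BMPs, GDFs and TGF-betas) act as dimers that bring together type I and type II receptor kinases, which phosphorylate SMAD proteins that then enter the nucleus. In mammals, hepatocytes are the main source of the activin chains INHBE and INHBC, endothelial cells of the liver sinusoids make BMP2 and BMP6, which set hepcidin and thereby iron uptake, and stellate cells make GDF2, also called BMP9. FGFs bind receptor tyrosine kinases. Most act near the cell that makes them, but FGF19 and FGF23 are hormones in mammals, FGF19 as the signal from gut to liver that lowers bile acid synthesis and FGF23 as the bone signal that makes the kidney excrete phosphate.

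Of the 65 members, 30 passed the filter on low counts and were tested for a difference between feeding groups with edgeR's quasi-likelihood test. INHBE and FGF23 were higher in high-intake-fed livers at an adjusted p under 0.05, and no member was lower at that threshold. The 2 higher members stand beside a background of 0.643% of 12914 mRNAs called higher and 0.829% called lower. FGF23, part of each count of higher members in this paragraph, passed the filter through the high-intake-fed birds alone. A difference was thus a condition of its being tested. By a looser rule, more than 2-fold at an unadjusted p under 0.05, 4 members were higher, where 4.26% of all mRNAs were, and 7 members were lower, where 5.33% of all mRNAs were. Without the fold limit edgeR had 4 higher and 9 lower members at an unadjusted p under 0.05, where 8.67% and 9.71% of all mRNAs were. DESeq2 called 2 members higher and 6 lower at its adjusted p, where it called 3.43% and 4.22% of all mRNAs. The median log2 fold change was -0.05 over the 30 members and 0.04 over all 12914 mRNAs.

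**Figure D1:**
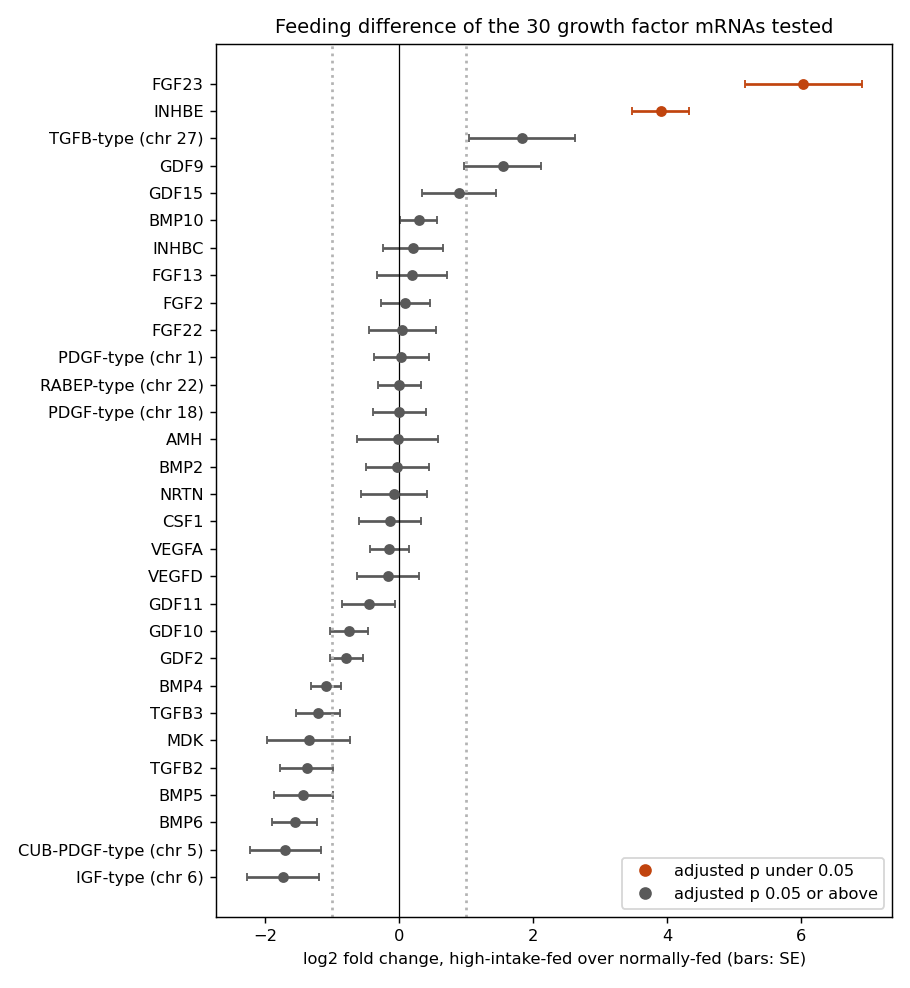
Log2 fold change (high-intake-fed over normally-fed, x axis) with its standard error for each of the 30 members tested, in order of size, with dotted lines at 2-fold. FGF23 and INHBE, in orange, stand alone at the top at 6.03 and 3.90, and the members at the bottom reach -1.73.

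INHBE encodes the beta chain of activin E, a protein that mammalian hepatocytes secrete. Its gene model, maker-Hic_scaffold_34-augustus-gene-5.8, lies on chromosome 34 (chr34:486078-487941, minus strand, in the coordinates of the deposited table; the sources used here do not give its build). It had 3832, 1766 and 4368 counts in high-intake-fed livers, against 177, 197 and 304 counts in normally-fed livers. The lowest high-intake-fed bird, replicate 2, stood far above the highest normally-fed bird, so the groups did not overlap.

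After TMM scaling (weighted trimmed means, which set the libraries to a common scale) INHBE averaged 215 ± 88.9 CPM (the count of a gene model relative to the scaled total of its library) in high-intake-fed livers and 14.3 ± 4.56 CPM in normally-fed livers (SD, n = 3 each). It rose 14.98-fold (log2 fold change 3.90, SE 0.42, edgeR adjusted p = 0.00823), and a two-sided exact permutation test gave p = 0.1, the smallest that 3 birds in each group allow. Per kilobase of coding length INHBE stood at 204 CPM in high-intake-fed livers, the first of all members, and at 13.7 CPM in normally-fed livers. Without normally-fed replicate 1 the log2 fold change was 3.78 and the adjusted p 0.0511, and in the other fits that left out 1 bird it lay between 0.00483 and 0.049.

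INHBC, the beta chain of activin C, is the next gene model on the same strand (chr34:495288-497814), 7346 bases from INHBE. It had 566, 277 and 1207 counts in high-intake-fed livers, against 667, 578 and 535 counts in normally-fed livers. The high-intake-fed birds lay on both sides of the normally-fed ones, with replicate 3 the highest and replicate 2 the lowest of all 6. INHBC averaged 43.4 ± 28.1 CPM in high-intake-fed livers and 37.7 ± 5.78 CPM in normally-fed livers (SD, n = 3 each), a log2 fold change of 0.21 (SE 0.45, edgeR adjusted p = 0.859), which turned to -0.40 without high-intake-fed replicate 3.

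The ratio of both chains within a bird, per kilobase of coding length, does not depend on library scaling; it was chosen after the values of both mRNAs had been seen and was not tested. INHBE stood at 7.02, 6.61 and 3.75 times the level of INHBC in high-intake-fed livers, against 0.275, 0.354 and 0.589 times in normally-fed livers. INHBE thus exceeded its neighbour in each high-intake-fed bird and lay below it in each normally-fed bird. The other inhibin chains among the members were at the edge of detection: INHBB had 4 counts in high-intake-fed and 12 counts in normally-fed livers over 3 birds each, and INHA, the alpha chain that turns activins into inhibins, had 2 counts in each group. No member was named INHBA, the beta chain of activin A, so its level is not given here.

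**Figure D2:**
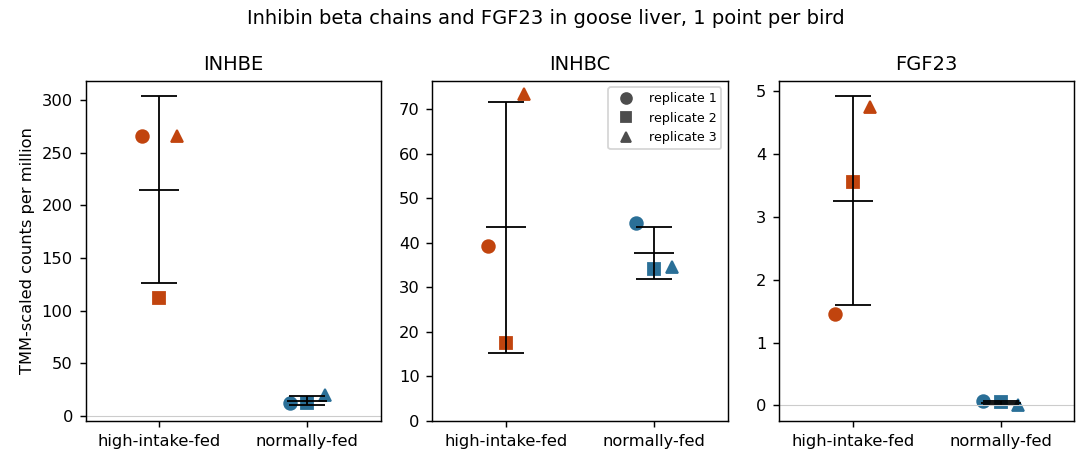
TMM-scaled CPM (y axis, linear, a scale of its own in each panel) of INHBE, INHBC and FGF23 in the 3 high-intake-fed and 3 normally-fed birds, with 1 point per bird, the group mean and its SD. INHBE and FGF23 show no overlap, whereas the high-intake-fed birds enclose the normally-fed ones for INHBC at 17.6 to 73.4 CPM.

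FGF23 was at the edge of detection in normally-fed livers and was counted in every high-intake-fed liver. Its model, maker-Hic_scaffold_1-augustus-gene-1107.6, lies on chromosome 1 (chr1:110747815-110750975, minus strand). It had 21, 56 and 78 counts in high-intake-fed livers, against 1, 1 and 0 counts in normally-fed livers. The groups did not overlap. FGF23 was the only member tested that passed the count filter through 1 group alone, so that a difference was a condition of its being tested.

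FGF23 averaged 3.25 ± 1.66 CPM in high-intake-fed livers and 0.0418 ± 0.0364 CPM in normally-fed livers (SD, n = 3 each). Pooled over birds, 155 counts in high-intake-fed livers stood against 2 counts in normally-fed livers, a ratio of 79.1 for library totals with an exact 95% interval of 21.5 to 659 that covers counting error only. The fitted log2 fold change of 6.03 (SE 0.87, edgeR adjusted p = 0.0213) depends on the prior count and is no bound. Leaving out normally-fed replicate 1, 2 or 3 raised the adjusted p to 0.0823, 0.0877 and 0.0865, with log2 fold changes of 6.40, 6.34 and 5.56. The exact permutation p was 0.1, the smallest possible.

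Beside FGF23 lies a model described only as an FGF, 24506 bases away; in RefSeq's annotation of a Taihu goose genome the neighbour of FGF23 there is FGF6. It had 13 counts in high-intake-fed and 10 counts in normally-fed livers, too few for a test. The hormone FGF19 had 0, 8 and 0 counts in high-intake-fed livers, all from replicate 2, against 1, 1 and 0 counts in normally-fed livers. It was not tested either. Of the 19 FGF models, 4 were tested: besides FGF23 these were FGF2, a growth factor for fibroblasts and endothelial cells, FGF13, which acts inside cells on sodium channels and binds no FGF receptor, and FGF22.

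FGF2 stood at 14.9 CPM in high-intake-fed and 13.9 CPM in normally-fed livers per kilobase of coding length, the highest FGF on this scale, with a coding model of 327 bases. That rank did not hold in the authors' FPKM, where FGF2 had 0.336, 0.923 and 0.666 in high-intake-fed livers, against 0.323, 0.963 and a listed 0 in normally-fed livers, and where FGF22 had 1.23, 0.703 and 0.440 in normally-fed livers. It had 104, 62 and 57 counts in high-intake-fed livers, against 59, 93 and 66 counts in normally-fed livers. The ranges overlapped, with replicate 1 the high bird among the high-intake-fed. The log2 fold changes of FGF2, FGF13 and FGF22 were 0.10, 0.20 and 0.05, with standard errors of 0.36 to 0.52 and edgeR adjusted p of 0.888 to 0.970.

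The BMPs with the clearest difference were lower in high-intake-fed livers, in bird after bird, without passing the adjusted threshold in the main edgeR fit. BMP4, a ligand best known from embryonic patterning, had 80, 117 and 117 counts in high-intake-fed livers, against 215, 228 and 235 counts in normally-fed livers. BMP6, the iron-responsive ligand of the mammalian liver, had 35, 93 and 73 counts in high-intake-fed livers, against 187, 209 and 199 counts in normally-fed livers. BMP5, a close relative of BMP6, had 17, 36 and 15 counts in high-intake-fed livers, against 48, 71 and 69 counts in normally-fed livers. All 3 were below every normally-fed bird in every high-intake-fed bird, and replicate 1 was the lowest for BMP4 and BMP6.

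The level of BMP4 was 6.70 ± 1.00 CPM in high-intake-fed livers and 14.3 ± 0.837 CPM in normally-fed livers (SD, n = 3 each), 2.13-fold lower (log2 fold change -1.09, SE 0.22, edgeR adjusted p = 0.0620). BMP6 stood at 4.26 ± 1.74 CPM in high-intake-fed livers and 12.5 ± 0.256 CPM in normally-fed livers, 2.94-fold lower (log2 fold change -1.55, SE 0.33, edgeR adjusted p = 0.0700). For BMP5 the log2 fold change was -1.43 (SE 0.44, edgeR adjusted p = 0.150). DESeq2 called all 3, at adjusted p of 0.00292 for BMP4, 0.00135 for BMP6 and 0.0483 for BMP5, and without high-intake-fed replicate 3 edgeR called BMP4 at an adjusted p of 0.0498. In the other fits with 1 bird left out the adjusted p of BMP4 was 0.0807 to 0.244. On all 6 birds edgeR called BMP4 with at least 10 counts in every library (adjusted p = 0.0497). With no filter on low counts edgeR called BMP6 (adjusted p = 0.0435). Over all alternatives BMP4 was called in 3 and not in 12, and BMP6 was called in 2 and not in 13.

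The other BMPs tested gave a different picture. BMP2, which in mammals is made by the same sinusoidal cells as BMP6, had 35, 51 and 31 counts in high-intake-fed livers, against 51, 52 and 19 counts in normally-fed livers, with overlapping ranges and a log2 fold change of -0.03 (SE 0.47, edgeR adjusted p = 0.985). BMP10, a circulating ligand made in the heart of mammals, had 83, 74 and 84 counts in high-intake-fed livers, against 75, 61 and 64 counts in normally-fed livers, and a log2 fold change of 0.29 (SE 0.28, edgeR adjusted p = 0.638). The remaining BMP models (BMP3, BMP7 and BMP15) had 5 to 18 counts over all 6 birds.

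GDF2 and GDF10 are neighbours on chromosome 8, 5016 bases apart, and lay lower in high-intake-fed livers to a like extent. GDF2 (BMP9), a ligand of the endothelial receptor ALK1, had 68, 81 and 72 counts in high-intake-fed livers, against 113, 133 and 143 counts in normally-fed livers. GDF10, a relative of BMP3, had 49, 50 and 44 counts in high-intake-fed livers, against 82, 80 and 82 counts in normally-fed livers. In neither did the groups overlap, yet both differences were under 2-fold: the log2 fold changes were -0.79 (SE 0.25, edgeR adjusted p = 0.153) for GDF2 and -0.74 (SE 0.28, edgeR adjusted p = 0.222) for GDF10.

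TGFB2 and TGFB3, ligands that drive matrix production in fibroblasts and stellate cells, were both lower in the high-intake-fed birds. TGFB2 had 15, 32 and 23 counts in high-intake-fed livers, against 49, 80 and 57 counts in normally-fed livers, a log2 fold change of -1.38 (SE 0.39, edgeR adjusted p = 0.129). TGFB3 had 52, 86 and 81 counts in high-intake-fed livers, against 101, 211 and 204 counts in normally-fed livers, a log2 fold change of -1.21 (SE 0.33, edgeR adjusted p = 0.121). Neither overlapped, although normally-fed replicate 1 came close to the high-intake-fed birds for TGFB3. DESeq2 called both, at adjusted p of 0.0353 for TGFB2 and 0.0291 for TGFB3.

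In bulk liver, fewer cells of a type and less RNA per cell cannot be told apart. Of 7 stellate cell and fibroblast markers matched, 4 lay lower without overlap (decorin, smooth muscle actin, reelin and LRAT) and 1, lumican, lay higher, where 13.3% of all mRNAs lay lower and 11.1% higher without overlap. Their summed level was 233 to 348 CPM in high-intake-fed and 447 to 551 CPM in normally-fed livers. Of 4 endothelial markers, von Willebrand factor and LYVE1 lay lower without overlap and PECAM1 and KDR overlapped, with summed levels of 181 to 201 CPM in high-intake-fed and 229 to 348 CPM in normally-fed livers. Neither list had a marker at 0 or one past an adjusted p under 0.05 in edgeR (3 and 2 lower at an unadjusted p under 0.05, and 1 and 2 lower by DESeq2).

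Of 5 hepatocyte markers matched, 3 lay lower without overlap, with log2 fold changes of -1.67 for transferrin, -2.62 for the fibrinogen beta chain and -6.25 for CYP7A1 (edgeR adjusted p = 0.110, 0.307 and 0.0255), while albumin and apolipoprotein B overlapped. Their summed level was 107400 to 248300 CPM in high-intake-fed and 223700 to 315800 CPM in normally-fed livers. Alpha haemoglobin, the only 1 matched of 8 erythrocyte and thrombocyte markers, lay higher at 262.5 to 391 CPM in high-intake-fed and 99.1 to 159 CPM in normally-fed livers (log2 fold change 1.34, SE 0.29, edgeR adjusted p = 0.0713). CD8A, of lymphocytes, lay lower at 1.46 to 3.16 CPM in high-intake-fed and 3.37 to 4.12 CPM in normally-fed livers, as did EPCAM, 1 of 3 biliary markers tested, whereas all 3 macrophage markers and adiponectin overlapped. The part of any of these cell types in the lower BMP, GDF and TGF-beta values was not tested.

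**Figure D3:**
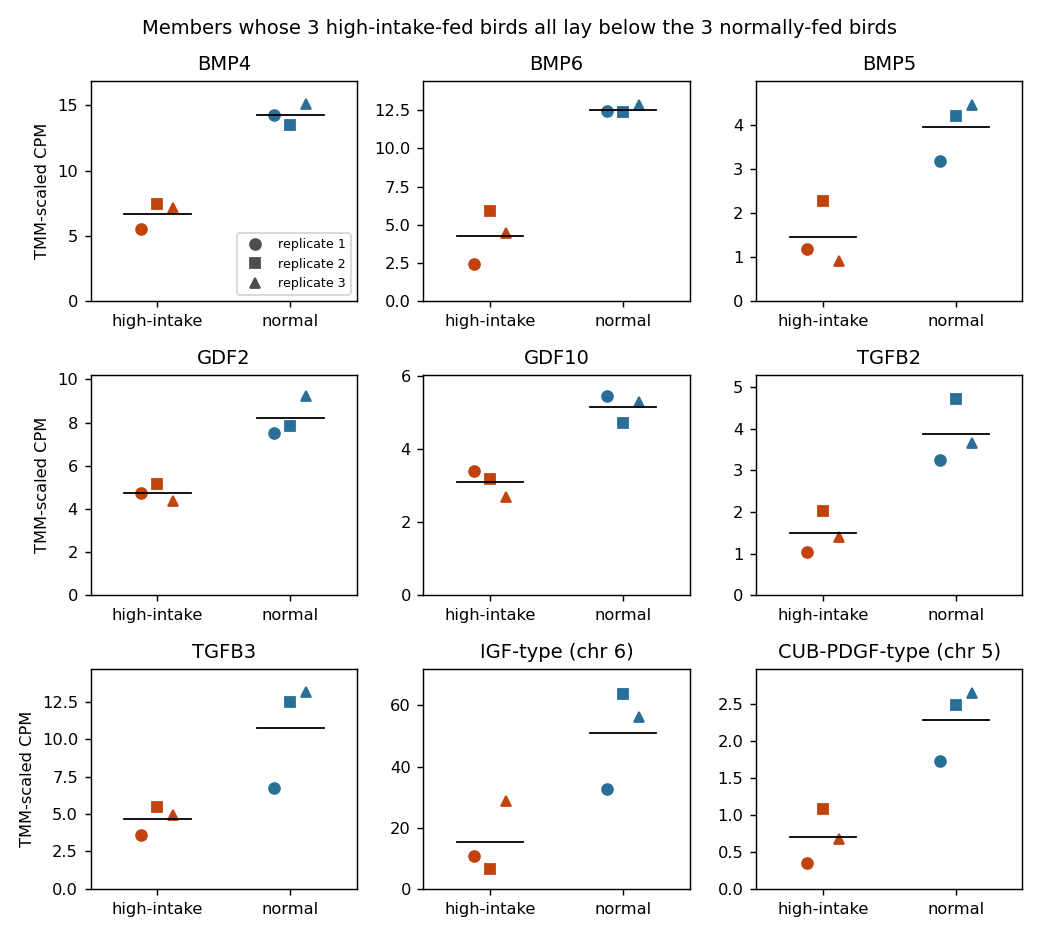
TMM-scaled CPM (y axis, from 0, a scale of its own in each panel) of the 9 members whose 3 high-intake-fed birds, on the left, all lay below the 3 normally-fed birds, with 1 point per bird and the group mean as a line. BMP6 shows the tightest normally-fed group, 12.4 to 12.8 CPM, and in the IGF-type panel high-intake-fed replicate 3, at 28.8 CPM, lies just below the lowest normally-fed bird, at 32.6 CPM.

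Across the 30 members tested, 9 had every high-intake-fed bird below every normally-fed bird, where 13.3% of all mRNAs did, and 3 had every high-intake-fed bird above, where 11.1% did. The 3 were INHBE, GDF9 and FGF23, the last of which passed the count filter through the high-intake-fed birds alone. The 9 were BMP4, BMP5, BMP6, GDF2, GDF10, TGFB2, TGFB3 and a model each of the insulin and the PDGF family.

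The insulin family model lies on chromosome 6 (chr6:37750158-37763366, plus strand), between a model named insulin and one of mitochondrial ribosomal protein L23; in RefSeq's goose annotation IGF2, a fetal and adult growth factor of the liver, lies between INS and MRPL23. The table itself names it only by its family. It had 153, 101 and 474 counts in high-intake-fed livers, against 491, 1080 and 871 counts in normally-fed livers. The groups did not overlap, but high-intake-fed replicate 3 was close to normally-fed replicate 1.

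This model averaged 15.3 ± 11.9 CPM in high-intake-fed livers and 50.9 ± 16.3 CPM in normally-fed livers (SD, n = 3 each), 3.32-fold lower (log2 fold change -1.73, SE 0.53, edgeR adjusted p = 0.151). Without high-intake-fed replicate 3 the log2 fold change was -2.57 and the edgeR adjusted p 0.0293, whereas without each other bird it lay between -1.97 and -1.37, at adjusted p of 0.209 to 0.392. DESeq2 on all birds gave an adjusted p of 0.0164. Per kilobase of coding length it was the first of all members in normally-fed livers, at 75.3 CPM, ahead of rabaptin and VEGFA, and stood at 22.7 CPM in high-intake-fed livers.

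Among the PDGF and VEGF family, a model with CUB and PDGF domains on chromosome 5 (chr5:47572332-47621768) lies beside the glycine receptor beta chain and a glutamate receptor, where RefSeq places PDGFC. It had 5, 17 and 11 counts in high-intake-fed livers, against 26, 42 and 41 counts in normally-fed livers. The groups did not overlap at these low counts, and the log2 fold change was -1.69 (SE 0.53, edgeR adjusted p = 0.152).

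The PDGF-type models of chromosomes 1 and 18, which lie where RefSeq has PDGFB and PDGFA, gave log2 fold changes of 0.03 and 0.00 (SE 0.41 and 0.40), with overlapping birds. VEGFA, the main growth factor of blood vessels and a member with high levels per kilobase, had 434, 380 and 838 counts in high-intake-fed livers, against 565, 697 and 581 counts in normally-fed livers. Its high-intake-fed birds lay on both sides of the normally-fed ones, with a log2 fold change of -0.14 (SE 0.28, edgeR adjusted p = 0.844). VEGFD, a lymphatic growth factor, gave -0.16 (SE 0.46), and PGF was not tested, with 23 counts in high-intake-fed and 14 counts in normally-fed livers.

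Besides INHBE and FGF23, the members past the looser rule on the higher side were GDF9 and a model on chromosome 27. GDF9, an oocyte factor in mammals, had 13, 32 and 37 counts in high-intake-fed livers, against 11, 12 and 5 counts in normally-fed livers. The groups did not overlap after scaling, with 0.904 CPM in the lowest high-intake-fed and 0.731 CPM in the highest normally-fed bird, and the log2 fold change was 1.55 (SE 0.58, edgeR adjusted p = 0.206). It left the looser rule without high-intake-fed replicate 2 or 3 or normally-fed replicate 3, with log2 fold changes of 1.42, 1.31 and 1.29 and unadjusted p of 0.0758, 0.0800 and 0.0778 from edgeR.

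The chromosome 27 model (chr27:1232075-1242466, minus strand), described only by a TGF-beta domain, had 88, 8 and 97 counts in high-intake-fed livers, against 23, 15 and 17 counts in normally-fed livers. High-intake-fed replicate 2 was the lowest of all 6 birds and the other high-intake-fed birds the highest, so the groups overlapped (log2 fold change 1.83, SE 0.79, edgeR adjusted p = 0.270). Without that bird the log2 fold change was 2.36 and the adjusted p 0.0471, whereas each other fit with 1 bird left out took it out of the looser rule, at unadjusted p of 0.0692 to 0.147 in edgeR and log2 fold changes of 1.45 to 2.06.

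Of the members that did not pass the looser rule, NRTN (neurturin, a ligand of the GDNF family that signals through RET) was among the 8 most abundant per kilobase. By the mean of the authors' FPKM, NRTN ranked only 11 among members in high-intake-fed and 15 in normally-fed livers. It had 89, 51 and 188 counts in high-intake-fed livers, against 155, 75 and 114 counts in normally-fed livers, overlapping in full, with a log2 fold change of -0.08 (SE 0.49, edgeR adjusted p = 0.951). The rabaptin model, also among the 8, had 1906, 2862 and 1254 counts in high-intake-fed livers, against 1819, 2145 and 2190 counts in normally-fed livers, and a log2 fold change of 0.01 (SE 0.32, edgeR adjusted p = 0.994). The high-intake-fed birds spread wider than the normally-fed ones for both.

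MDK (midkine), a heparin-binding growth factor, gave a log2 fold change of -1.34 (SE 0.62, edgeR adjusted p = 0.298) with overlapping birds. GDF15, a stress-induced hormone that lowers food intake in mammals, gave 0.89 (SE 0.56, edgeR adjusted p = 0.442), at 0.825 to 1.76 CPM in high-intake-fed and 0.399 to 0.945 CPM in normally-fed livers. GDF11, CSF1 (the macrophage growth factor) and AMH gave log2 fold changes of -0.45, -0.13 and -0.02, and none of these 5 passed an unadjusted p under 0.05.

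In order of mean level per kilobase of coding length over all birds, the 8 leading members were INHBE (109 CPM), rabaptin (49.7 CPM), the IGF-type model (49.0 CPM), VEGFA (46.2 CPM), INHBC (37.2 CPM), BMP6 (14.7 CPM), FGF2 (14.4 CPM) and NRTN (12.2 CPM). Each neighbour in this order overlapped the next in its range over birds of both groups together. Within high-intake-fed livers INHBE, at a mean of 204 CPM, did not overlap rabaptin, at a mean of 49.8 CPM. The order differed between groups: INHBE led in high-intake-fed livers, whereas in normally-fed livers it lay below the means of the IGF-type model, rabaptin, VEGFA, INHBC and BMP6, and level with FGF2 within the spread of birds. By the authors' FPKM INHBE also led in high-intake-fed livers, at 89.6, and in normally-fed livers, at 5.78, lay below the means of the same 5 members but far above FGF2.

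**Figure D4:**
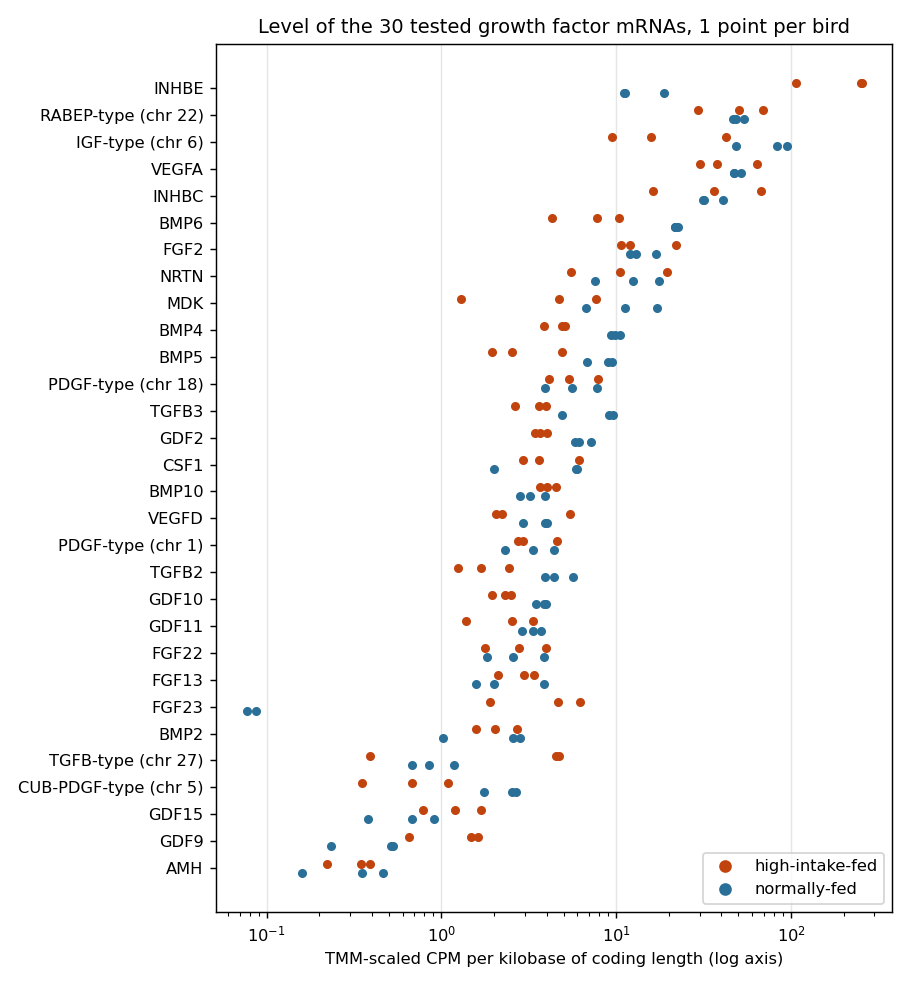
TMM-scaled CPM per kilobase of coding length (x axis, log scale) of the 30 members tested, 1 point per bird, high-intake-fed above normally-fed in each row; the normally-fed bird with 0 FGF23 counts is not drawn. INHBE lies at the top in high-intake-fed birds, at 204 CPM on average, and below the IGF-type model, rabaptin, VEGFA, INHBC and BMP6 in normally-fed birds, at 13.7 CPM.

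Another 35 members were not tested. Each had at most 37 counts over all 6 birds, and 33 of them had at least 1 count. The 2 without any, which are copies named NODAL on chromosome 29, could be present at up to 0.0318 CPM by the limit of 3 counts over the 6 libraries. Models of the same name, here of NODAL, FGF12 and an IL4-type cytokine, may share reads, and their counts are uncertain. For members such as FGF1, FGF7, FGF9, LEFTY and myostatin a difference was not detectable at this depth.

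The receptors, antagonists, transducers and target genes of these families, and further ligands without the Gene Ontology term, were compared by lists of 84 further models. Of these, 73 were tested. None was called higher and 3 were called lower by edgeR at an adjusted p under 0.05 (4.11%, against 1.47% of all mRNAs called in either direction): RET, FGFR2 and CYP7A1. The lists were drawn up with earlier results of these data known, so this share is no independent test. CYP7A1, KDR and decorin also stand among the cell type markers above. DESeq2 called 1 higher and 10 lower, where it called 3.43% and 4.22% of all mRNAs. At an unadjusted p under 0.05 in edgeR, 3 were higher and 15 lower, where 8.67% and 9.71% of all mRNAs were. The same shares stand beside the counts of each list below. The median log2 fold change was -0.14, against 0.04 over all mRNAs. The 1 called higher by DESeq2 and 2 of the 3 higher by edgeR were further ligands.

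None of the 16 TGF-beta family receptor models was called by edgeR (3 lower and 0 higher at an unadjusted p under 0.05, and 1 lower by DESeq2). The smallest p belonged to a type I receptor kinase on chromosome 7 (chr7:40174928-40180588), a family that holds ACVR1B, ACVR1C and TGFBR1; it had 2, 2 and 4 counts in high-intake-fed livers, against 17, 20 and 11 counts in normally-fed livers (log2 fold change -2.51, SE 0.63, edgeR adjusted p = 0.0953). It passed the count filter through the normally-fed birds alone, so that a difference was a condition of its being tested. It lies beside an ACVR1-type model, and in RefSeq the neighbour of ACVR1 is ACVR1C, the receptor ALK7 through which activin E acts in mammals. TGFBR3, the co-receptor betaglycan, and the TGFBR2-type model, a type II receptor, gave log2 fold changes of -0.75 and -0.77 (SE 0.20 and 0.22), without overlap. BMPR1B gave -1.17 (SE 0.52), and the log2 fold changes of the other 12 models lay between -0.68 and 1.01. Among these were the other type II receptor models, all with overlapping birds. ACVR2A gave -0.12 (SE 0.31), ACVR2B 1.01 (SE 0.60) and the BMPR2/AMHR2-type models 0.09 and -0.04 (SE 0.25 each).

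Of the secreted antagonists and carriers, which bind ligands outside the cell, 5 models were tested and edgeR called none (2 lower at an unadjusted p under 0.05, and 2 by DESeq2). Follistatin, which captures activins and several BMPs, had 92, 26 and 225 counts in high-intake-fed livers, against 465, 264 and 411 counts in normally-fed livers. The groups did not overlap (log2 fold change -1.74, SE 0.64, edgeR adjusted p = 0.202). Decorin gave -0.88 (SE 0.27), a follistatin-like model, which passed the count filter through the normally-fed birds alone, -1.20 (SE 0.64) and NBL1 -0.64 (SE 0.41). TWSG1, the other antagonist tested, went the opposite way at 0.63 (SE 0.47), with overlap.

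The SMADs carry the signal of TGF-beta family receptors to the nucleus. None of 8 transducer models was called by edgeR or DESeq2, or had an unadjusted p under 0.05, and their log2 fold changes lay between -0.14 and 0.59. SMAD7, the inhibitory SMAD that TGF-beta itself induces, had 45, 44 and 43 counts in high-intake-fed livers, against 69, 124 and 77 counts in normally-fed livers (log2 fold change -0.98, SE 0.31, edgeR adjusted p = 0.160). It was the lowest of 5 models of inhibitors and targets, of which edgeR and DESeq2 called none and only SMAD7 had an unadjusted p under 0.05. SKI, TGIF1 and both SMAD6 models lay between -0.29 and 0.46.

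FGFR2 was lower in high-intake-fed livers. It had 161, 224 and 170 counts there, against 424, 431 and 432 counts in normally-fed livers, without overlap (11.9 ± 2.04 CPM in high-intake-fed and 27.2 ± 1.48 CPM in normally-fed livers, SD, n = 3 each; 2.28-fold lower, log2 fold change -1.19, SE 0.21, edgeR adjusted p = 0.0412). Leaving out high-intake-fed replicate 1, or normally-fed replicate 1, 2 or 3, gave adjusted p of 0.0887, 0.145, 0.164 and 0.182. A further FGF receptor model close to it (chr8:5522505-5530417 beside chr8:5553733-5584163) had a log2 fold change of -1.24 (SE 0.34, edgeR adjusted p = 0.119), and whether both belong to 1 gene was not tested.

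FGFR4, the main FGF receptor of hepatocytes in mammals, had 1007, 2496 and 2125 counts in high-intake-fed livers, against 1229, 1083 and 689 counts in normally-fed livers. High-intake-fed replicate 1 lay among the normally-fed birds and the other high-intake-fed birds lay above them (log2 fold change 0.91, SE 0.35, edgeR adjusted p = 0.223). The FGFR family model of chromosome 5 gave 0.45 (SE 0.20), higher without overlap. FGFR3 gave 0.50 (SE 0.34) and the FGFR1 model tested gave -0.57 (SE 0.61), both with overlap. Klotho, the co-receptor of FGF23, had 12, 42 and 7 counts in high-intake-fed livers, against 75, 50 and 41 counts in normally-fed livers (log2 fold change -1.42, SE 0.66, edgeR adjusted p = 0.303).

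RET, the receptor kinase of neurturin and other GDNF family ligands, had 126, 107 and 144 counts in high-intake-fed livers, against 351, 454 and 502 counts in normally-fed livers. The groups did not overlap. RET stood at 8.10 ± 1.14 CPM in high-intake-fed and 27.5 ± 4.55 CPM in normally-fed livers (SD, n = 3 each), 3.39-fold lower (log2 fold change -1.76, SE 0.23, edgeR adjusted p = 0.0165). Without normally-fed replicate 2 or 3 the adjusted p was 0.0714 and 0.0979.

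In the same list, a KIT model on chromosome 5 and EGFR, the receptor of EGF family ligands, gave log2 fold changes of -1.62 and -0.65 (SE 0.42 and 0.26, edgeR adjusted p = 0.103 and 0.244), without overlap. An insulin receptor model of 534 coding bases gave 0.48 (SE 0.22), higher without overlap. The other 7 receptors tested lay between -0.48 and 0.08. Among them a longer insulin receptor model on the same chromosome, of 3492 coding bases, gave 0.04 (SE 0.21, edgeR adjusted p = 0.943). Also among them, a model on chromosome 16 matched to KIT by its description gave 0.07 (SE 0.29, edgeR adjusted p = 0.923) with overlap. It averaged 65.6 CPM in high-intake-fed and 62.3 CPM in normally-fed livers, against 1.12 and 3.46 CPM for the KIT model on chromosome 5. The chromosome 5 model lies between the PDGFR-type and KDR models of the lists, and the chromosome 16 model lies near the FLT4 model. Whether the chromosome 16 model is KIT or a related receptor was not tested, so the 2 levels need not belong to the same gene.

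CYP7A1, the rate-limiting enzyme of bile acid synthesis and the gene that FGF19 represses in mammals, was counted among the FGF targets. It had 7, 39 and 7 counts in high-intake-fed livers, against 1449, 2380 and 380 counts in normally-fed livers. Every high-intake-fed bird lay below the lowest normally-fed bird, which was replicate 3 (log2 fold change -6.25, SE 0.90, edgeR adjusted p = 0.0255). Without high-intake-fed replicate 1 or normally-fed replicate 1 or 2 the adjusted p was 0.0749, 0.0757 and 0.0596. None of the classical feedback genes of FGF signalling that were tested was called: DUSP6 gave -0.37 (SE 0.32), ETV5 0.35 (SE 0.51) and DUSP4 0.28 (SE 0.46). In edgeR, 7 of the 8 models tested in this list had an unadjusted p of 0.268 or more. A 2-fold difference in them could have gone unseen at this spread.

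Of 13 further ligand models without the Gene Ontology term that were tested, edgeR called none (2 higher and 3 lower at an unadjusted p under 0.05, and 1 higher and 2 lower by DESeq2). VEGFC, the lymphatic relative of VEGFD, had 40, 35 and 40 counts in high-intake-fed livers, against 98, 92 and 94 counts in normally-fed livers (log2 fold change -1.27, SE 0.29, edgeR adjusted p = 0.0753). Amphiregulin, a ligand of EGFR, had 19, 35 and 152 counts in high-intake-fed livers, against 12, 16 and 6 counts in normally-fed livers (log2 fold change 2.57, SE 0.79, edgeR adjusted p = 0.149). Neither overlapped, and for amphiregulin high-intake-fed replicate 3 stood far above the rest. Epiregulin, another EGFR ligand, gave 1.65 (SE 0.65) with overlap, and a model of the matrix protein CCN2 gave -1.26 (SE 0.35) without. A further CCN2 model on the same chromosome was not tested. It had 0, 2 and 1 counts in high-intake-fed livers, against 0, 168 and 0 counts in normally-fed livers. Both CCN2 models have 1044 coding bases and may share reads, so their counts are uncertain.

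**Figure D5:**
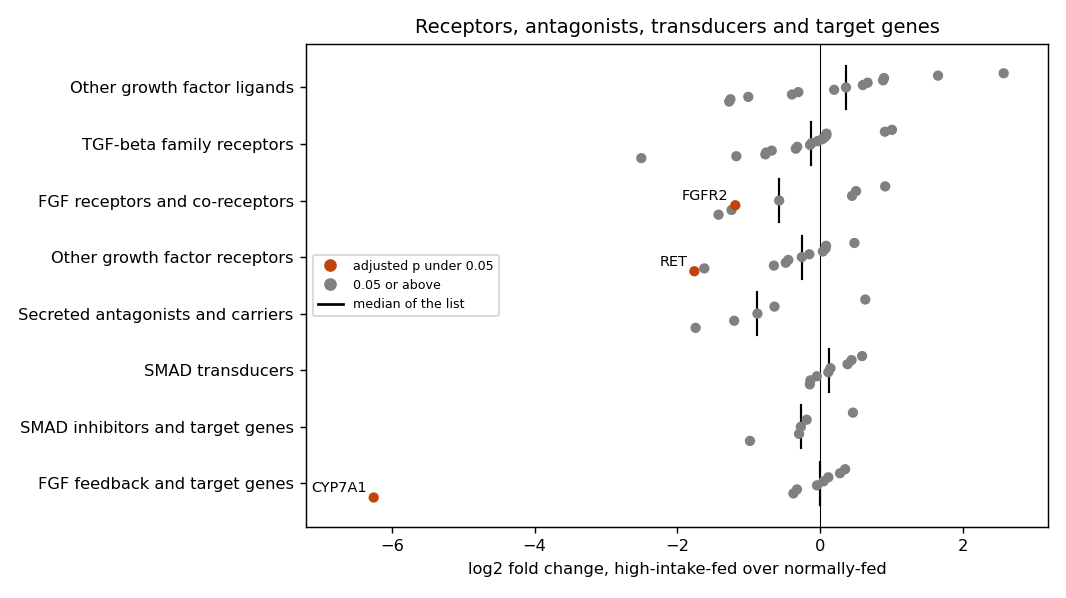
Log2 fold change (high-intake-fed over normally-fed, x axis) of each tested model in 8 lists, with the median of each list as a line and models past an adjusted p under 0.05 in orange. CYP7A1 at -6.25, RET at -1.76 and FGFR2 at -1.19 are the ones called, and the SMAD transducers lie close together around 0.13.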

How the data were processed

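Liver RNA of 6 lion-head geese was depleted of ribosomal RNA and sequenced from strand-specific libraries, 1 per bird. The authors removed ribosomal reads with Bowtie2, aligned the rest with HISAT2, and deposited a table of raw counts. They also deposited FPKM (fragments scaled by gene length and library depth) for the same models, used here as an alternative and beside some levels. These FPKM are no plain rescaling of the counts. Albumin, with 1114917 to 3766878 counts, is listed at an FPKM of 0 in all 6 birds. VEGFC had 92 counts and a listed FPKM of 0 in normally-fed replicate 2. Why the 2 measures differ was not tested. The submitters' processing notes name FastQC and BWA. The sources used here do not give the counting program, its strand setting or the genome build.

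Counts were tested with edgeR 4.0.16 in R 4.3.3 (quasi-likelihood test after TMM scaling; filterByExpr at 10 counts, 15 in total), without covariates, with Benjamini-Hochberg adjustment over 12914 mRNAs. The SE is the size of the log2 fold change fitted without edgeR's prior count, over the square root of its F statistic. The printed log2 fold changes include the prior count, which matters most at low counts such as those of FGF23. Depth was 14154910 to 16993373 counts per library and the common biological coefficient of variation 0.356. In simulated data of this comparison (12942 models tested, 50 changed at each size) 4% of 2-fold, 82% of 4-fold and 94% of 8-fold changes were recovered, so a member that was not called may still differ by 2-fold. The simulation gave each model the spread typical of its level, the same in both groups, and drew the changed models from all tested. It does not give the recovery for a member that spread more widely, where larger changes may also be missed. Alternatives were DESeq2 1.42.0, limma 3.58.1 trend on log2(CPM + 1) and log2(FPKM + 1), a block for the replicate number, RLE factors, plain library sizes (with or without the 20 most abundant models), a filter of 10 counts in every library or none, and leaving out each bird.

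Counts per bird were given for INHBE and FGF23, members past an adjusted p under 0.05 or past a fold of 2 with an unadjusted p under 0.05, and the 8 members highest per kilobase; of each list, for members past the threshold and up to 4 of the smallest p. INHBC ratios, BMP2, BMP10, GDF2, GDF10 and klotho lie outside this rule and were added once their values had been seen. Members and lists were chosen with earlier results of these data known. List genes were matched by the models' descriptions, which found 14 of 45 further ligands, 12 of 18 TGF-beta family receptors, 6 of 7 FGF receptors, 11 of 25 other receptors, 7 of 19 antagonists, 5 of 6 SMADs, 4 of 16 inhibitors and targets and 8 of 14 FGF targets, some by family only. Markers matched were 5 of 8 for hepatocytes, 7 of 12 for stellate cells and fibroblasts, 4 of 10 for endothelial cells and 3 of 10 for macrophages. The others were 4 of 7 biliary, 1 of 8 erythrocyte and thrombocyte, 1 of 8 lymphocyte and 1 of 5 adipocyte markers. Where several models matched a marker, the one with the highest mean CPM was kept. RefSeq's goose annotation served only for the order of neighbouring genes. Each replicate is 1 bird.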

Additional observations from a re-analysis of the deposited data

How the results depend on the processing

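By edgeR 2 members were called, against 8 by DESeq2 (2 higher and 6 lower), 1 with the replicate number as a block, 0 by limma on log2(FPKM + 1) (11 at an unadjusted p under 0.05) and 0 to 4 with 1 bird left out (11 at an unadjusted p under 0.05 where it was 0, without normally-fed replicate 1). Of 12914 mRNAs edgeR called 190, against 988 by DESeq2, 61 with the block and 25 by limma on log2(FPKM + 1). The deposited FPKM differ from the counts in more than scale, so that alternative changes the measured values as well as the test. With 1 bird left out it called 30 to 511 mRNAs, and 44 without normally-fed replicate 1. The counts of members and list models stand beside these. With no filter on low counts BMP6 was called as well, and with at least 10 counts in every library INHBE and BMP4 were called. Among all mRNAs tested, these 2 settings called 335 of 18766 and 264 of 11348. By the looser rule, 4 members were higher, against 2 by limma on log2(CPM + 1), 1 with at least 10 counts in every library, 2 with the block, 1 by limma on log2(FPKM + 1) and 2 to 3 with 1 bird left out; 7 were lower, against 2 by limma on log2(FPKM + 1) and 6 to 8 with 1 bird left out. Of the list models 3 were called, against 11 by DESeq2, 1 with the block, 0 by limma on log2(FPKM + 1) (11 at an unadjusted p under 0.05) and 0 to 3 with 1 bird left out (14 at an unadjusted p under 0.05 where it was 0, without normally-fed replicate 2). For the looser rule and the unadjusted p, the share of all mRNAs was not counted in these alternatives. Changes in those counts thus cannot be told from a general change in how many mRNAs passed.

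INHBE was called under each alternative but limma on log2(FPKM + 1), where its log2 fold change was 3.67 (adjusted p = 0.0638), and the fit without normally-fed replicate 1; with 1 bird left out it lay between 3.72 and 4.23. For FGF23 the block gave 5.93 (adjusted p = 0.068) and limma on log2(FPKM + 1) 0.86 (adjusted p = 0.148), where the pseudocount of 1 shrinks low values; with 1 bird left out it lay between 5.56 and 6.40, and with at least 10 counts in every library it could not be tested. INHBC changed sign, to -0.0062 by limma on log2(CPM + 1), to -0.015 with the block and to -0.40 without high-intake-fed replicate 3, the low end of -0.40 to 0.58 with 1 bird left out. Apart from these, the block ended the calls of RET (adjusted p = 0.0571) and FGFR2 (adjusted p = 0.127). Same-numbered birds did not deviate together (correlations of -0.161, 0.0312 and -0.183), but correlations between so few birds cannot exclude a pairing. The sample labels name no pairs. The paper states that it used paired t-tests between the feeding groups and does not say which birds were paired. Where the cause of a changed value is not named, the cause was not tested.

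The number of birds limits the tests: 3 against 3 gives no exact p below 0.1, and the spread recovered few 2-fold changes in simulation. The low counts of FGF23, GDF9 and the untested members limit what can be said of them.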
